A study of Mus musculus with 6 samples.

Results

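Beside annotated genes, the deposited data list 2381 regions that the authors assembled from sperm RNA and numbered with the prefix TCONS. The regions described here were chosen by length and by their own counts: 1000 bases or less, off the mitochondrial chromosome, and at least 1 count in each of the 3 count tables. The rule took 622 of the 2381 regions, and of 2165 short regions in all. Of the other short regions, 1348 had counts in nuclei but a count of 0 in whole sperm, and 195 had other patterns. Because the counts chose them, the members' levels and their differences between nuclei and whole sperm are a description, and nothing is supported with them.

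Sperm came from the cauda epididymis and vas deferens of 4 month old adult mice of the C57BL/6 transgenic line HP3.1, which all groups share; the transgene is not described in the labels. There were 2 preparations of nuclei, isolated through a sucrose and caesium chloride gradient with detergent after sonication, and 1 preparation of whole sperm, lysed without those steps. The 6 samples are 2 runs of each preparation, and each preparation had 1 count column. Whole sperm therefore has no replicate, the spread is that between the 2 nuclei libraries, which may be technical, and the labels do not tie a preparation to an animal. Because the RNA is from bulk samples, fewer cells of a type and less RNA per cell cannot be told apart.

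The mature sperm head is packed with protamines and makes little or no new RNA, so the RNA it holds was mostly made earlier, in spermatocytes and round spermatids. Those cells transcribe much of the genome outside genes, including long noncoding RNAs, precursors of piRNAs, and stretches just before gene starts, where many mammalian promoters are copied in both directions. An assembler joins overlapping reads into a region without knowing the gene, so a short region may be a piece of a longer transcript.

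Sequence could be read for 2 kinds of members, and those on which later statements rest are shown here. The first kind lies just before the start of a protein-coding gene. The pieces below are the bases that a member shares with the RefSeq promoter window of that gene (build GRCm38.p6, 250 bases before to 50 after the start), on the gene's strand. They were taken from the most abundant members that share at least 100 bases with such a window. Capitals mark motifs searched on both strands: the GC box core GGGCGG, the box core CCAAT, the TATA box core TATAAA and the cyclic AMP response element TGACGTCA; the last 2 are in none of these pieces. The piece at Cs lies at chr10:128337477-128337657 on the plus strand, in TCONS_00004815. The region TCONS_00018258 lies between Hspa1a and Hspa1l, which are read in opposite directions, and gives 2 pieces: chr17:34972290-34972406 on the minus strand and chr17:34972453-34972651 on the plus strand. The piece at Oaz1 lies at chr10:80826406-80826586 on the plus strand, in TCONS_00004630.
Cs: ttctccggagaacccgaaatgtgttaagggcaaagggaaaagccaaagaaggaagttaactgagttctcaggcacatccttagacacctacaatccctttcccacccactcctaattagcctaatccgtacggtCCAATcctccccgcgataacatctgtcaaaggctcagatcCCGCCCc
Hspa1a: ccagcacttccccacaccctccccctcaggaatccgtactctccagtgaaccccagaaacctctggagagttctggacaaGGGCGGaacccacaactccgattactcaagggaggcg
Hspa1l: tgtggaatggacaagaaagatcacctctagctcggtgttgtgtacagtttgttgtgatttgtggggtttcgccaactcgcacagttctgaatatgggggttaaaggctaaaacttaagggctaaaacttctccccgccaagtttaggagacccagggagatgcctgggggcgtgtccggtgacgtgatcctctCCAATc
Oaz1: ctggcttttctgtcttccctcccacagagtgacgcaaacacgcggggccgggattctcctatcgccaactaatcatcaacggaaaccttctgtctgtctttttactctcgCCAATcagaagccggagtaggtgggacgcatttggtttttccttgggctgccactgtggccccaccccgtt

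The second kind lies inside 1 exon of a noncoding transcript of GENCODE vM21 (build GRCm38, also called mm10), from which the sequence was taken on the transcript's strand. Of the 4 members in the Gm49794 long noncoding RNA, the 2 that overlap a microRNA hairpin, in capitals, are shown: TCONS_00018229 (chr17:27355729-27356015, plus strand, whole) holds all 62 bases of Mir7217, and TCONS_00018231 (chr17:27358133-27358688, plus strand, first 300 of 556 bases) starts within Mir7218 and shares 23 bases with it. The most abundant member of this kind, TCONS_00004650 in the long noncoding RNA Gm48485 (chr10:86660505-86661170, plus strand, first 300 of 666 bases), is shown for its level and has no marked letters.
TCONS_00018229: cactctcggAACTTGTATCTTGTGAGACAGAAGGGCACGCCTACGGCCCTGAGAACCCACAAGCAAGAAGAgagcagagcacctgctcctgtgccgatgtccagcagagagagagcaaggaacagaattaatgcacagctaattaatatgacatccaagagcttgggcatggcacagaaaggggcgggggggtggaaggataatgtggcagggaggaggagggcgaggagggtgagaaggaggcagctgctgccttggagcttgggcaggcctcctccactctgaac
TCONS_00018231: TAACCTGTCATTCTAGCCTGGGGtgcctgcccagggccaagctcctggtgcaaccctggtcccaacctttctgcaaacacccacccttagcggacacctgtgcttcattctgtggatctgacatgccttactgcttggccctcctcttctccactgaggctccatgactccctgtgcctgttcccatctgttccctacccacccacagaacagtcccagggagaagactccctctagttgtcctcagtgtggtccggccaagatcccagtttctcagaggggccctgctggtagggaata
TCONS_00004650: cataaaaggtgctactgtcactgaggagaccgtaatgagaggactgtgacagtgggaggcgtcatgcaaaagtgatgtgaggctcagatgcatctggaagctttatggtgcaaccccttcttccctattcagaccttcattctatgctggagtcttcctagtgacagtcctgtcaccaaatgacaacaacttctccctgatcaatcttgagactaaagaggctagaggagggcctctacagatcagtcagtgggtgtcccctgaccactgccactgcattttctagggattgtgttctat

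The 25 members that could be read in this way had a median GC content of 48.95%, between 36.0% and 57.6%. On the transcript's strand the longest run of A in any of them was 8 bases. Runs of T, which are runs of A on the opposite strand, were not measured.

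The members were short even within the length limit. They ran from 266 to 985 bases with a median of 375.5, against a median of 319 bases for the short regions counted in nuclei only. The longest member was TCONS_00007835 at 985 bases, and the first region beyond the limit was TCONS_00004634 at 1011 bases, with counts of 406 (nuclei 1), 309 (nuclei 2) and 436 (whole sperm). By count, 34 members had a lowest count of exactly 1, and 491 had 10 or more counts in every library. Just outside the rule, 42 short regions had a 0 only for nuclei 1, 103 only for nuclei 2 and 287 only for whole sperm. A count of 0 and an RPKM of 0 did not always go together: of 1354 short regions with no count in whole sperm, 22 had a deposited RPKM above 0. Among the regions counted in nuclei only, the highest such whole-sperm RPKM was 516.6. All 622 members had an RPKM above 0 in every library.

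Total counts over genes and regions were 5487306 for nuclei 1, 6648848 for nuclei 2 and 8316345 for whole sperm. The 622 members held 78647 counts in nuclei 1, which is 1.43% of that total (exact Clopper-Pearson 95% interval 1.423 to 1.443%). They held 124707 in nuclei 2, which is 1.88% (1.865 to 1.886%). They held 82939 in whole sperm, which is 0.997% (0.9906 to 1.004%). These intervals cover counting error only. The members' share of counts over genes and regions was thus lowest in whole sperm. By this share the nuclei libraries differed from each other by more than the counting error. The order depends on the total used: it leaves out reads outside any feature (34.4% of the whole-sperm file). The members' raw count was lowest in nuclei 1. Set against the counts of all 2381 assembled regions, members held 31.6%, 49.0% and 31.0% in the same order.

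Marker genes bear on what each preparation held. The 12 spermatid and sperm genes of a list that includes the protamines Prm1 and Prm2 were counted in every library and summed to 5658 CPM (nuclei 1), 5513 CPM (nuclei 2) and 3062 CPM for whole sperm. CPM here are counts relative to each library's total, in the usual CPM unit, scaled with TMM factors. Of these 12 genes, Smcp (431, 413 and 606 CPM) and Ldhc (23.3, 33.1 and 40.2 CPM) were highest in whole sperm. For Akap4 and Tssk6 whole sperm lay between the nuclei libraries, and the others were lowest in whole sperm. The 10 epididymal genes summed to 1862, 1868 and 11180 CPM, with 6 of 10 counted in every library and Lcn5, Lcn8 and Defb15 at 0 throughout. The vas deferens gene Akr1b7 stood at 817, 836 and 5560 CPM, and 6 epithelial genes summed to 80.5, 142 and 431 CPM. The epididymal and epithelial sums and Akr1b7 were therefore several times higher in whole sperm. The part of such cells in the differences given below was not tested. Leukocyte genes, 6 in all, summed to 17.9, 12.6 and 19.3 CPM, with Ptprc at 0 counts in nuclei 1. The 6 smooth muscle and stroma genes summed to 119, 73.6 and 123 CPM, with Des at 0 throughout. Among them Acta2, Col3a1 and Dcn were highest in whole sperm, while Myh11 and Col1a1 were lowest there. Of the erythrocyte genes only Hba-a1 and Alas2 were in the tables, and Hba-a1 was at 0 in every library.

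Taking nuclei 1, nuclei 2 and whole sperm in that order, which is kept below, the median member had 87, 112.5 and 76 counts, or 16.6, 16.9 and 8.78 CPM. Both nuclei libraries stood above whole sperm in CPM for 326 of 622 members (52.4%), where 35.0% of the 10812 genes and regions counted in every library did so. Both stood below it for 105 members (16.9%), where the share over the same features was 36.7%. Whole sperm lay between the nuclei libraries for the other 191. The median log2 difference, nuclei minus whole sperm, was 1.14 in the edgeR fit, against 0.27 over all 16720 features tested and 0.04 over the 10039 annotated genes counted in every library. The direction of the median depends on the scaling. When libraries were scaled by 23 ERCC spike-ins, the members' median was -0.29 and that of all features -1.16.

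**Figure D1:**
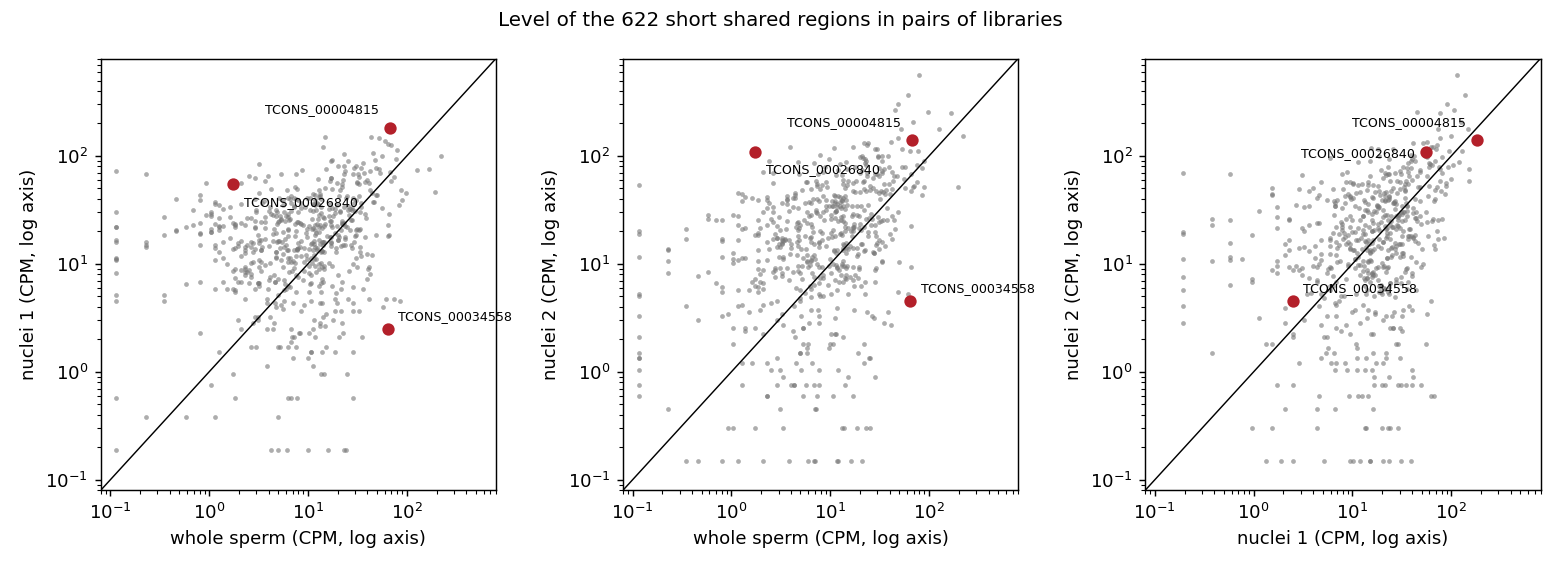
Each point is 1 of the 622 members, with its CPM in the 2 libraries named on the log axes, and the line marks equal levels. Points lie above the line more often than below it in the panels against whole sperm, and the panel of the nuclei libraries shows how far these differ from each other. TCONS_00026840 (Trim45), TCONS_00034558 (Igkc) and TCONS_00004815 (before Cs) are in red.

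The nuclei libraries differed widely from each other. The log2 difference between nuclei 1 and nuclei 2 had an SD of 2.37 over the members, and of 2.20 over annotated genes counted in every library. They were within 2-fold of each other for 257 of 622 members (41.3%) and for 42.8% of those genes. All 3 libraries were within 2-fold for 76 members, and for 199 the highest and lowest differed by more than 10-fold. The Spearman correlation of CPM across the 622 regions was 0.36 between the nuclei libraries. Against whole sperm it was 0.25 for nuclei 1 and 0.40 for nuclei 2. It describes regions that share libraries, and neighbouring regions can belong to 1 transcript. Nuclei 2 was thus closer in rank order to whole sperm than to the other nuclei preparation.

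In the edgeR quasi-likelihood fit over all features, 2 of the 622 members passed an adjusted p of 0.05 with higher levels in nuclei, and none with lower levels. Under other settings, spike-in scaling turned the members' calls to lower levels in nuclei, and no feature of any kind passed at a mean of at least 10 CPM. Over all features the edgeR test called 0.0658% higher and 0.0957% lower. Since the counts chose the members, nothing is read from these calls. The first region, TCONS_00026840, had counts of 288, 729 and 15 (55.0, 109 and 1.73 CPM). It overlaps an exon of Trim45, which encodes a tripartite motif protein of the E3 ubiquitin ligase family. Trim45 itself had counts of 98, 180 and 21. The second, TCONS_00007546, had counts of 380, 134 and 1 and lies 48517 bases from the nearest gene, Stc2, which encodes a secreted glycoprotein hormone. In both regions the nuclei libraries were above whole sperm. With 1 count in whole sperm, the ratio of TCONS_00007546 was 374 with a counting interval of 66.8 to 14787.

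The 10 highest members of each library held 9.08%, 14.6% and 12.9% of its member counts. By mean CPM over the libraries the highest was TCONS_00014659 (chr15:78662998-78663475), 3856 bases from Elfn2, a gene for a leucine-rich repeat membrane protein. Its counts were 598, 3773 and 690, so that nuclei 2 stood apart from the other libraries. TCONS_00032320 (chr5:148779472-148780300), in an intron of the long noncoding RNA 4930505K14Rik, had 717, 2425 and 526 counts. TCONS_00007678 (chr11:60037158-60037749), in an intron of Pemt, had 476, 2002 and 417 counts. Pemt encodes the enzyme that methylates phosphatidylethanolamine to phosphatidylcholine, and the gene itself had counts of 66, 33 and 0. In each of these 3 regions nuclei 2 was highest in CPM and whole sperm lowest.

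The other members of the leading 10 did not share 1 order of libraries. TCONS_00040053 (chr8:35102662-35102946), in an exon of the long noncoding RNA Gm34419, had 527, 1019 and 1922 counts and was the highest member in whole sperm at 222 CPM. TCONS_00007556, more than 10 kb from a gene on chromosome 11, had 399, 1682 and 1458 counts, with whole sperm between the nuclei libraries. TCONS_00004815, before Cs, had 957, 937 and 583 counts. Cs encodes citrate synthase of the citric acid cycle, and the region was the highest member in nuclei 1 at 183 CPM. The only member on the Y chromosome, TCONS_00044663, had 564, 1781 and 390 counts.

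TCONS_00040275 on chromosome 8, 1249 bases from Gm45335, had 660, 1372 and 597 counts. The remaining 2 regions of the leading 10 lie on chromosome 18: TCONS_00019591 with 236, 1714 and 851 counts and TCONS_00019493 with 388, 1189 and 1091 counts. In both, the nuclei libraries lay on opposite sides of whole sperm.

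**Figure D2:**
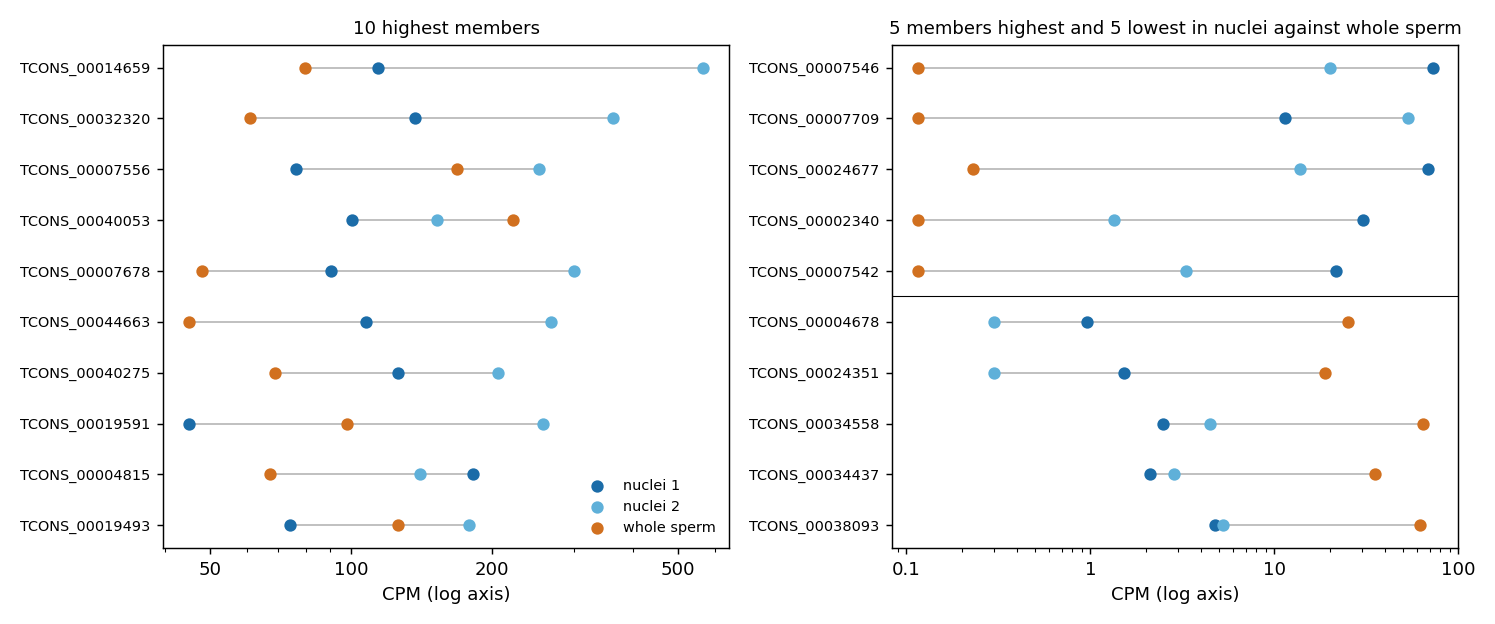
Levels in CPM on log axes for the 10 members with the highest mean and for the 5 members highest and 5 lowest in nuclei against whole sperm, with 1 point per library and a grey line from lowest to highest. Nuclei 2 is the highest library for 8 of the 10 leading members, and in the second panel the groups do not overlap by the way members were chosen.

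At the ends of the range were members with very few counts on one side. Of the 5 with the largest difference towards nuclei, 4 had a single count in whole sperm. TCONS_00007709, in an exon of Gm43951, had counts of 60, 357 and 1. This region also overlaps the gene 4933427D14Rik, whose own counts were 243, 1145 and 401. TCONS_00007542, 295 bases before Rtn4, which encodes the reticulon protein Nogo of the endoplasmic reticulum, had counts of 114, 22 and 1. TCONS_00002340 had counts of 160, 9 and 1. Without nuclei 1 its log2 difference, as a plain ratio of CPM, was 3.55 in place of the fitted 6.90. TCONS_00024677 had counts of 360, 92 and 2, a ratio of 164 with a counting interval of 45.2 to 1361. Their order rests on 1 or 2 counts in whole sperm.

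Towards whole sperm, TCONS_00034558 (chr6:70726453-70726722) had counts of 13, 30 and 554 and overlaps the exon of Igkc, the constant region of the immunoglobulin kappa light chain, which is made by B cells and plasma cells. Of the 6 leukocyte genes, Ptprc (0, 24 and 65 counts), Cd68 (8, 17 and 37), Lyz2 (11, 6 and 45) and Cd3e (0, 1 and 2) had most counts in whole sperm, Itgam (75, 26 and 18) in nuclei 1 and Cd79a (0, 10 and 0) in nuclei 2. Their part in the difference at Igkc was not tested. TCONS_00038093 (chr7:79365104-79365510), in an exon of Abhd2, had counts of 25, 35 and 534. Its neighbours in the same gene went the same way, TCONS_00038092 with 25, 18 and 360 counts and TCONS_00038091 with 89, 24 and 206. Abhd2 encodes a lipid hydrolase known as a progesterone receptor of sperm, and the gene's own counts of 529, 942 and 921 showed no such gap. The other 3 regions at this end, TCONS_00004678 with 5, 2 and 217 counts, TCONS_00024351 with 8, 2 and 163, and TCONS_00034437 with 11, 19 and 305, overlap no exon. For TCONS_00004678 the ratio of whole sperm to nuclei was 42.6 with a counting interval of 20.4 to 107.

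At the other extreme of evenness, 5 members with 20 or more counts in every library differed least. TCONS_00024485, in an exon of Gm29340, had 27, 32 and 43 counts, and its highest CPM was 1.07 times its lowest. TCONS_00037853 lies 52 bases before Gipr, the gene of the receptor for glucose-dependent insulinotropic polypeptide, and had 117, 145 and 169 counts. TCONS_00038297, in an intron of Cfap46, a gene of the ciliary and flagellar central apparatus, had 79, 84 and 124 counts. TCONS_00002513 in 1700019P21Rik and TCONS_00040066 before the pseudogene Gm8342 completed the set, with ratios of 1.14 each.

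Position in the genome was not used by the rule. Of the 622 members, 149 (24.0%) overlapped an exon of GENCODE vM21 and 105 (16.9%) lay in introns only, so that 254 (40.8%) overlapped a gene. The remaining 368 lay outside genes: 92 (14.8%) within 1 kb before a gene start, 6 within 1 kb beyond an end, 153 (24.6%) at 1 to 10 kb and 117 (18.8%) more than 10 kb away. Genes of protein-coding type were overlapped by 123 members, long intergenic noncoding RNAs by 78, pseudogenes by 32 and antisense RNAs by 18. Only 66 of the 208 genes overlapped had a row of their own in the count tables, and the annotation the authors counted with is not given in the sources used here. Without a stated strand setting, the reads of a region cannot be told apart from those of a gene on the opposite strand.

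Members lay closer to genes than the short regions counted in nuclei only, and the 195 short regions of other patterns were near genes as well. The median distance to the nearest gene was 334 bases for members, 22630 bases for nuclei-only regions and 759 bases for the other patterns. A gene was overlapped by 40.8% of members, 16.5% of nuclei-only regions, 41.5% of the other patterns and 25.8% of all 2165 short regions. More than 10 kb from a gene lay 63.6% of the nuclei-only regions and 25.1% of the other patterns. Within 1 kb before a start lay 28 of 1348 nuclei-only regions (2.08%), and 7 of the 287 that had counts in both nuclei libraries (2.44%). It was 10 of the 195 regions of other patterns (5.13%) and 6.00% of all short regions. The members' share of 14.8% was 14.5% (71 of 491) when 10 or more counts were required in each library. Within 1 kb beyond an end lay 9 members (1.45%) and 17 nuclei-only regions (1.26%), some of them also before a start. Within 5 kb, 147 members (23.6%) and 8.38% of nuclei-only regions lay before a start, and 79 members (12.7%) and 4.82% of nuclei-only regions beyond an end. Counting protein-coding genes alone, 68 members lay within 1 kb before a start and 2 within 1 kb beyond an end. These shares were not tested, since neighbouring regions are not independent and regions of few counts are less likely to be counted in all 3 libraries. The X chromosome held 6 members (0.965%) and 41 nuclei-only regions (3.04%).

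**Figure D3:**
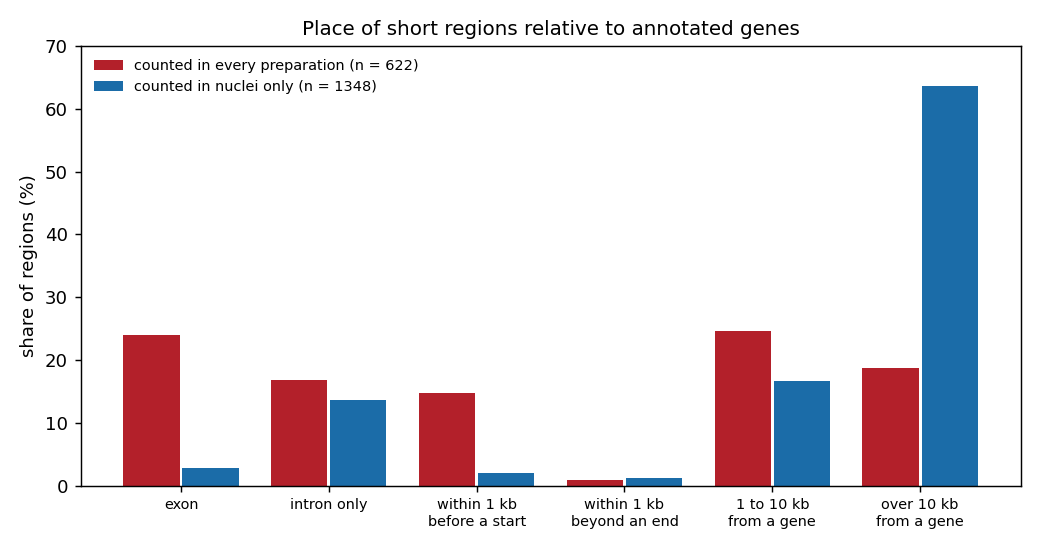
Bars show the share of short regions in each place relative to annotated genes, for the 622 members in red and the 1348 regions counted in nuclei only in blue. The bars differ most over 10 kb from a gene, at 18.8% and 63.6%, and the members' bars are the taller ones in exons and before starts.

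**Figure D4:**
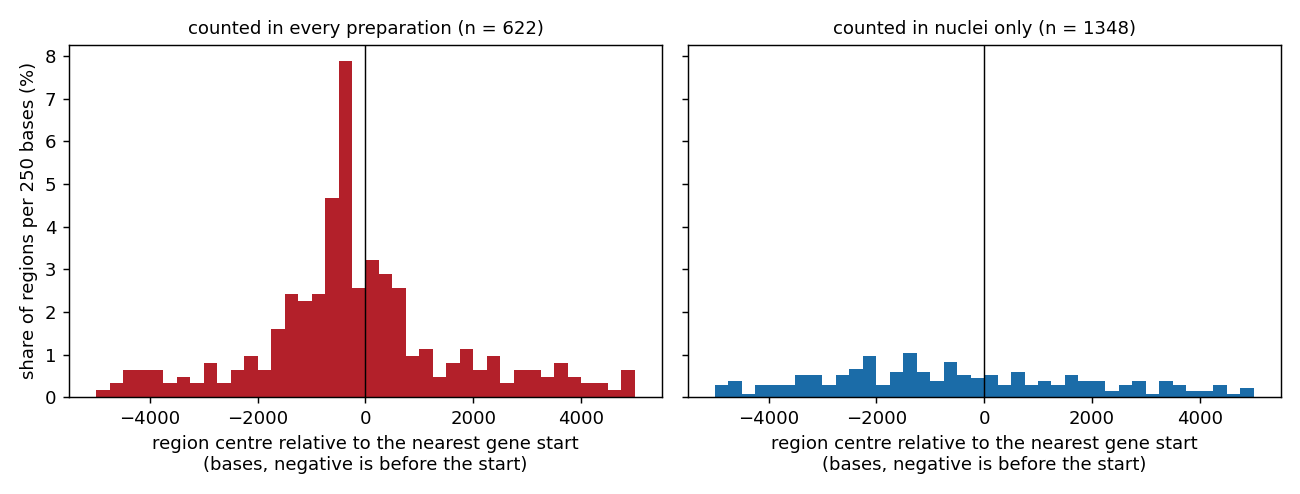
Share of regions per 250 bases by the distance of the region's centre from the nearest gene start, with negative distances before the start. Of the members 50.3% have their centre within 5000 bases of a start, with the tallest bars just before it, and of the nuclei-only regions 15.9% do.

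The 92 members before gene starts lay a median of 275 bases from the start. They had median levels of 21.8, 18.1 and 7.16 CPM. Both nuclei libraries stood above whole sperm for 61 of them (66.3%) and below it for 7 (7.61%). Over all 622 members these shares were 52.4% and 16.9%. Over all features counted in every library they were 35.0% and 36.7%. The median log2 difference of the 92 members, nuclei minus whole sperm, was 1.49. It was 1.25 for the 149 members in exons, 0.95 for the 105 in introns, 1.01 for the 153 at 1 to 10 kb and 1.07 for the 117 farther away. The medians of these places thus ran from 0.95 to 1.49, and only that of the 6 members beyond gene ends, at 0.38, was lower.

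The genes beside these 92 members were themselves mostly counted. The tables held 73 such genes, of which 67 (91.8%) had counts in every library, while 10039 of all 23229 annotated genes (43.2%) did. Beside nuclei-only regions it was 10 of 17 genes (58.8%). For the 70 pairs in which the gene was counted in every library, the median log2 difference between nuclei and whole sperm was 1.50 for the region and 0.82 for the gene. Both come from the same 3 libraries.

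TCONS_00004815 ends 77 bases before the GENCODE start of Cs, with 183, 140 and 67.3 CPM. Cs itself had 29.2, 50.2 and 23.4 CPM; CPM are not corrected for length, so region and gene are not ranked against each other. Both were lowest in whole sperm. TCONS_00018258, between Hspa1l and Hspa1a, had counts of 212, 620 and 84. Hspa1l, the HSP70 gene of spermatids, had 157, 523 and 139 counts, and Hspa1a, its stress-inducible neighbour, had 29, 61 and 48. The region was higher in both nuclei libraries than in whole sperm, and nuclei 2 had the highest count for the region and for both genes. TCONS_00004630, 70 bases before Oaz1, the gene of ornithine decarboxylase antizyme, had 161, 204 and 98 counts. These are the 3 regions whose sequence before a coding start is printed above.

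Other members lay before genes of many counts. TCONS_00010879, 127 bases before BC005537, had counts of 768, 1192 and 456, where the gene had 4846, 3292 and 4013. TCONS_00034324, 480 bases before Cftr, the gene of the chloride channel lost in cystic fibrosis, had 469, 376 and 147 counts beside 1335, 1798 and 1584 for the gene. The opposite order of libraries was seen in TCONS_00009492, 108 bases before Atxn3, which encodes a deubiquitinase, with 139, 24 and 333 counts, and in TCONS_00034600, 136 bases before Mir468, with 24, 290 and 734. Mir468 itself was listed at 0 counts in every library. In these 2 regions both nuclei libraries lay below whole sperm.

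RefSeq promoter windows were overlapped by 71 members (11.4%), by 14 nuclei-only regions (1.04%), by 4 of the 195 other patterns (2.05%) and by 89 of all short regions (4.11%). The members touched 88 windows of 79 genes. The median GC content of these windows was 58.7%, against 52.7% over all 32851 windows, and of the 65 windows of protein-coding genes 60.7% against 56.3% over all 21263 such windows. GGGCGG, the core of the GC box bound by Sp factors, was in 60.0% of these 65 windows and in 46.2% of all protein-coding windows. CCAAT, the core of the CCAAT box, was in 36.9% and 38.2%, and TATAAA, the TATA box core, in 6.15% and 12.6%. The cyclic AMP response element TGACGTCA, which reads the same on both strands, was in 9.23% and 2.23%. Among all 88 windows, of any gene type, 8 held TGACGTCA and these belong to 6 members. Some windows overlap each other. Of the 25 pieces that lie inside members and wholly before a coding start, 4 held GGGCGG, 3 held CCAAT and none held the TATA box core or the cyclic AMP response element in the letters searched. These are matches of letters in windows, described without a test.

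Members also lay in groups. When members separated by 10000 bases or less were joined, 365 stood alone and 257 (41.3%) fell into 89 groups of 2 or more. Of these groups 19 held 4 or more members, 93 in all. The sharing of sequence between members was not analysed here, so reads that fit more than 1 place cannot be recognised.

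The 2 largest groups had 8 members each. One (chr6:49476691-49489835) lies outside its nearest gene, Stk31, which encodes a Tudor domain kinase of male germ cells. Its members summed to 1899, 2276 and 1540 counts, and both nuclei libraries were above whole sperm in 6 of the 8 members and below in 1. Its most abundant member, TCONS_00034474, lies 18819 bases beyond Stk31 and had 395, 524 and 458 counts. Within the group TCONS_00034468 had 79, 45 and 196 counts, while TCONS_00034470 in the same group had 122, 451 and 42. Members of 1 group thus differed in their order of libraries.

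The other group of 8, at Gm49793 (chr17:27298487-27320345), summed to 807, 1847 and 2092 counts, with whole sperm between the nuclei libraries in CPM. Its most abundant member, TCONS_00018212 in an intron of Gm49793, had 203, 596 and 774 counts. Beyond it on the same chromosome lay 4 members at Gm10505 and 4 at Gm49794. The members at Gm10505 summed to 489, 1460 and 834 counts. Those at Gm49794, which include the regions with Mir7217 and Mir7218 shown above, summed to 345, 813 and 1129 counts. TCONS_00018229, around Mir7217, had 94, 218 and 325 counts, and TCONS_00018231 had 172, 530 and 492. All 3 groups had their lowest summed CPM in nuclei 1.

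A group of 7 near Gm4865 (chr5:27968626-27975709) summed to 1225, 1297 and 1198 counts. Its leading member TCONS_00031864 had 421, 465 and 175 counts, whereas TCONS_00031870 had 7, 1 and 61. A group of 6 at the pseudogene 4930432E11Rik (chr7:29574073-29579635) summed to 669, 1666 and 730 counts. There TCONS_00037878 stood apart in nuclei 2, with 95, 780 and 258 counts, and no member had both nuclei libraries below whole sperm. All 5 members of a group near Upk2 and at C030014I23Rik (chr9:44457032-44469750) had both nuclei libraries above whole sperm. They summed to 1175, 2327 and 839 counts. The same was so of 4 members that overlap Ppp2r3d (chr9:124438950-124442717), with 566, 751 and 134 counts. Ppp2r3d is a gene of a regulatory subunit of protein phosphatase 2A. The gene Ppp2r3d itself had 0, 25 and 47 counts.

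**Figure D5:**
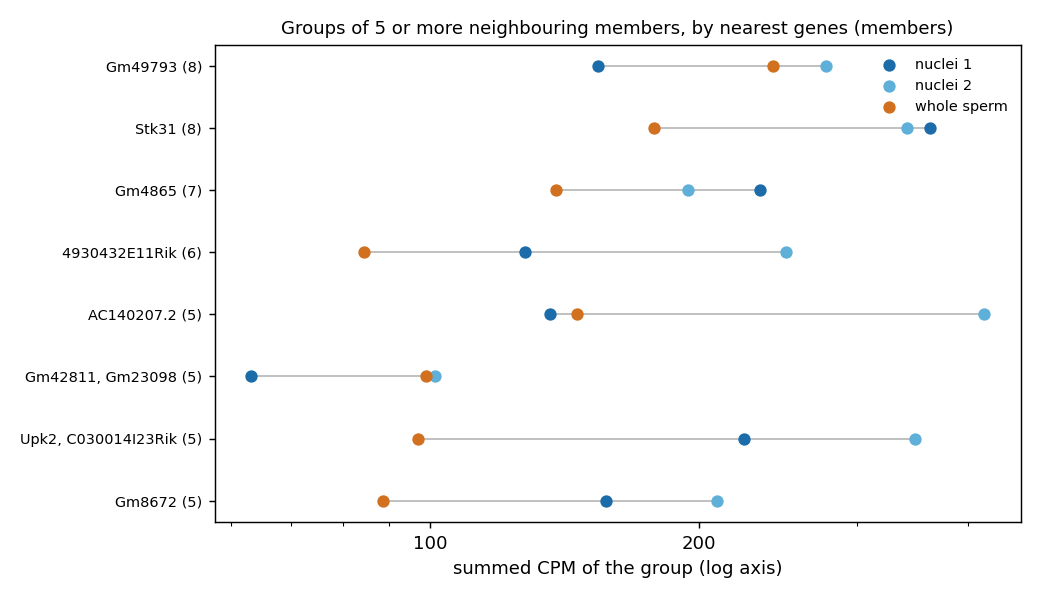
Summed CPM on a log axis for the 8 groups of 5 or more neighbouring members, named by the nearest genes with the number of members in brackets, with 1 point per library and a grey line from lowest to highest. Whole sperm is lowest in 5 groups, and nuclei 1 is lowest at Gm49793, AC140207.2 and Gm42811.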

How the data were processed

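The count tables as deposited give raw read counts, 1 column for each preparation. The deposited RPKM columns were used only as an alternative. Their value per count and kilobase was nearly the same in all libraries, although the totals over genes and regions differ. The medians were 0.0585, 0.0570 and 0.0574 over members with 20 or more counts. Coordinates are the authors' own (build mm10 per the labels), and whether they count from 0 or 1 is not given in the sources used here. Per the submitters' processing notes, TopHat2 2.0.12, Cufflinks 2.1.1, SAMtools 0.1.19, CASAVA 1.8.2, bedtools, HTSeq and DESeq2 were used, with no role or order given. ERCC spike-ins were left out, and so were the whole-sperm reads listed as outside any feature (34.4% of that file) or ambiguous (1.97%).

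Levels are CPM with TMM factors. In edgeR 4.0.16, under R 4.3.3, glmQLFit and glmQLFTest (quasi-likelihood) were run after filterByExpr on 16720 features. The p-values were adjusted by Benjamini-Hochberg, and calls needed an adjusted p under 0.05. The fit leaves 1 residual degree of freedom and takes the spread of whole sperm to be that of nuclei. It drew each feature's spread fully to one shared across features. The p-values therefore do not measure a region's own spread between the nuclei libraries. Alternatives were DESeq2 1.42.0, scaling by its size factors, by spike-ins or by library size, other filters, RPKM, and each nuclei library alone. Genes come from GENCODE vM21, and promoter windows and hairpins from RefSeq (GRCm38.p6).

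The members and lists were chosen with earlier results of these data known. Regions named are the 10 with the highest mean CPM, the 5 largest and 5 smallest differences with 20 or more counts and both nuclei libraries on 1 side, the 5 most even, those past the edgeR threshold, and the leading member of the 3 largest groups. The regions named before gene starts and within groups were chosen after their values were seen. Members that share sequence, and other genome copies, were not analysed here.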

Additional observations from a re-analysis of the deposited data

How the results depend on the processing

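The number of members called by edgeR was 2. It was 1 with library size alone, 1 without the filter on low counts, 1 with DESeq2 and 0 with a mean of at least 10 CPM, where fewer features were tested. With spike-in scaling it was 6, all lower in nuclei, and over all features 4 were then called higher and 545 lower. Over all features the main settings called 11 higher and 16 lower, and DESeq2 called 204 and 39. The median log2 difference of the members was 1.14 in the edgeR fit. Taken as plain log2 ratios of CPM, the median was 1.00 without nuclei 1 and 0.83 without nuclei 2, each below the fitted value. It was 0.28 and 0.31 on the log2(RPKM + pseudocount) scale, with pseudocounts of 0.1 and 1. The deposited RPKM had nearly the same value per count and kilobase in all libraries. They are thus not scaled to the totals over genes and regions, as CPM are. Which total they were divided by is not given in the sources used here. With spike-in scaling the members' median reversed to -0.29. Spike-in scaling also reversed TCONS_00040275 (-0.17), TCONS_00004815 (-0.17), TCONS_00037853 (-1.26) and TCONS_00034474 (-0.89). The cause of these changes was not tested. The labels do not say how much spike-in each library received.

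The count of members, and those of members overlapping a gene and of members before gene starts stayed within 1.5 times under their alternatives. For the last of these, the alternatives of 500 bases (69), protein-coding genes alone (68) and 10 or more counts (71) were chosen after seeing the data. The search for other genome copies was not run, since it needs a genome sequence. No paired analysis was possible because whole sperm has 1 preparation and the labels pair neither nuclei preparation with it. Depth limits the members with few counts: 131 of 622 had a count under 10 in some library.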
